A study of Homo sapiens with 12 samples.

Results

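The MYC, MAX and MXD network is described here through 10 genes chosen by name: MYC and MYCN, their partner MAX, the repressors MXI1, MXD1, MXD3, MXD4 and MNT, and the related pair MLX and MLXIP. They are 10 of the 38021 gene names in the deposited table. Of these, 9 had counts and passed the filter on low counts, which left 16838 genes to test, and MYCN had 0 counts in all 12 libraries. RNA was sequenced from 786O cells, a clear cell renal carcinoma line that lacks functional VHL, and from WT8 cells, which were derived from 786O and express wildtype VHL. Each line was infected with a pLKO.1 lentivirus carrying a control shRNA (shControl) or an shRNA against BMAL1 (shBMAL1) and selected in puromycin, which gave 4 groups of 3 libraries: 786O shControl, 786O shBMAL1, WT8 shControl and WT8 shBMAL1. All cells carried a virus and the drug selection, and no group is uninfected. WT8 is a single derived line, so an effect of VHL cannot be told apart from other differences between 786O and WT8, and the labels do not distinguish different shBMAL1 constructs, so an effect of BMAL1 cannot be told apart from another effect of the shRNA.

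The labels call the replicates biological without saying how the cultures were kept apart, so p-values measure the spread between these samples. Libraries held 33182005 to 36477484 counts, and Pearson's r between the replicates of a group was 0.991 to 0.992 across genes in log2 CPM (CPM here is a count relative to the effective library size, which is the library total times its TMM scaling factor). BMAL1, listed as ARNTL, had 12.1 ± 1.37 CPM (SD, n = 3) in 786O shControl and 3.94 ± 0.220 CPM in 786O shBMAL1, and 9.24 ± 0.966 against 1.66 ± 0.236 CPM in WT8. VHL had 18.8 ± 1.58 CPM in 786O shControl and 980.7 ± 56.5 CPM in WT8 shControl. VHL itself was lower with shBMAL1 in WT8, at 646.9 ± 15.1 CPM (log2 -0.60, adjusted p 6.67e-13), so the WT8 groups, and with them the interaction, also differ in VHL transcript, whose part in the results was not tested. In 786O shBMAL1 VHL had 19.4 ± 1.62 CPM. The renal markers PAX8, KRT8, KRT18, CDH2 and VIM were present in every library, the lowest value being 104 CPM (CDH2 in WT8 shControl), and PAX2 was at 10.1 to 27.2 CPM, whereas CA9, a HIF target common in this tumour, stayed at or below 1.41 CPM. Of 6 markers of other cell types, PTPRC, CD3E, CDH5, ALB and HBB stayed at or below 0.256 CPM. PECAM1 was the only one with enough counts to be tested, at 0 CPM in 786O shControl and at most 0.870 CPM, in WT8 shControl. In bulk RNA, fewer cells that express a gene and less RNA per cell cannot be told apart.

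MYC is a transcription factor that binds DNA only as a dimer with MAX, at E-boxes with the sequence CACGTG, and raises genes of growth, ribosome production and metabolism. The MXD proteins, MXI1 and MNT compete for MAX, bind the same E-boxes and recruit SIN3 and histone deacetylases, which lowers those genes. MLX dimerises with MLXIP (MondoA), which responds to glucose phosphates and drives TXNIP and ARRDC4, and MLX can also pair with some MXD proteins and MNT. BMAL1 with CLOCK recognises the same core E-box. In clear cell renal carcinoma, HIF2α is known to enhance and HIF1α to oppose MYC activity, and 786O is a line that makes HIF2α alone.

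Because the CACGTG E-box is the site shared by BMAL1 and the network, the promoters of the members were searched for it. The window was 300 bases, from 250 before to 50 after each annotated start, in sequence from RefSeq on GRCh38.p14. All 9 members other than MYC, which was not searched, had a promoter there, 12 promoters in all. CACGTG, which reads the same on both strands and contains ACGTG, occurred in 3 of these 9 members, in 1 promoter each. By promoter that is 3 of the 12, and 7.26% of all 35116 promoters hold it. The 3 are MXD4, MNT and MLX. Among the MLXIP targets described further on, ARRDC4 also has 1, while the promoters of TXNIP and ARRDC3 have 0. The sites of these 3 members and of ARRDC4 are shown here, on the strand of the gene. Up to 30 bases are given on each side, with the E-box in capitals. The E-box began 238 bases before the start of MXD4 (chr4:2262312-2262359, minus strand), 193 before that of MNT (chr17:2401218-2401283, minus strand), 50 before that of MLX (chr17:42567020-42567085, plus strand) and 210 before that of ARRDC4 (chr15:97960463-97960528, plus strand).
MXD4: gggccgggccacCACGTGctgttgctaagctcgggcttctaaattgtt
MNT: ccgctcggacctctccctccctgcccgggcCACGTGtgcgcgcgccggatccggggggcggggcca
MLX: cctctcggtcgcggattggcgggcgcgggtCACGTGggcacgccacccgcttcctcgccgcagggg
ARRDC4: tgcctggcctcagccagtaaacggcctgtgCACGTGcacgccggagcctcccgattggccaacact
Searched on both strands, the shorter ACGTG was in 21.4% of all promoters, and was present in these 4 and in 1 promoter each of MAX, MXI1 and TXNIP. GCGTG, which is in 36.5% of all promoters, occurred in promoters of MXI1, MXD3, MLX, MLXIP, TXNIP and ARRDC4. ACGTG and GCGTG are both forms of the HIF core motif. A match is a run of letters in this window, not a measured site.

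MYC transcript was higher with shBMAL1 in both lines and higher in WT8 than in 786O, MAX was lower with shBMAL1 in both lines, and MLXIP was lower with shBMAL1 in both lines. MXD4 and MXD3 changed with shBMAL1 in opposite directions in WT8, and neither was called in 786O. Genes were called at an adjusted p under 0.1 (quasi-likelihood test of edgeR, Benjamini-Hochberg over all genes tested). In 786O shBMAL1 changed 3 of the 9 members (33.3%), 1 higher and 2 lower. Of all genes tested, 48.9% were called in that comparison, 24.5% higher and 24.4% lower. In WT8, 6 of 9 members (66.7%) were called with shBMAL1, 2 higher and 4 lower, where 69.8% of all genes were called, 32.9% higher and 36.9% lower. Between the shControl groups of the 2 lines all 9 were called, 5 higher and 4 lower in WT8, where 79.5% of all genes were called, 39.3% higher and 40.2% lower. The interaction, which subtracts the 786O response to shBMAL1 from the WT8 response on the log2 scale, was called for 4 of 9 (44.4%), 1 positive and 3 negative, against 56.0% of all genes, 27.4% positive and 28.5% negative. When a change over 1.5-fold was required in edgeR, 0 members passed in 786O, also 0 at an unadjusted p under 0.05, where 5.88% of all genes passed, and 3 (MXD3, MXD4 and MLXIP) passed in WT8, where 25.6% did. Between the lines 4 (MYC, MXD3, MXD4 and MLX) passed against 41.5% of all genes, and 2 (MXD3 and MXD4) passed in the interaction against 18.6%. The shBMAL1 comparison in each line and the comparison of the lines share their shControl libraries.

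**Figure D1:**
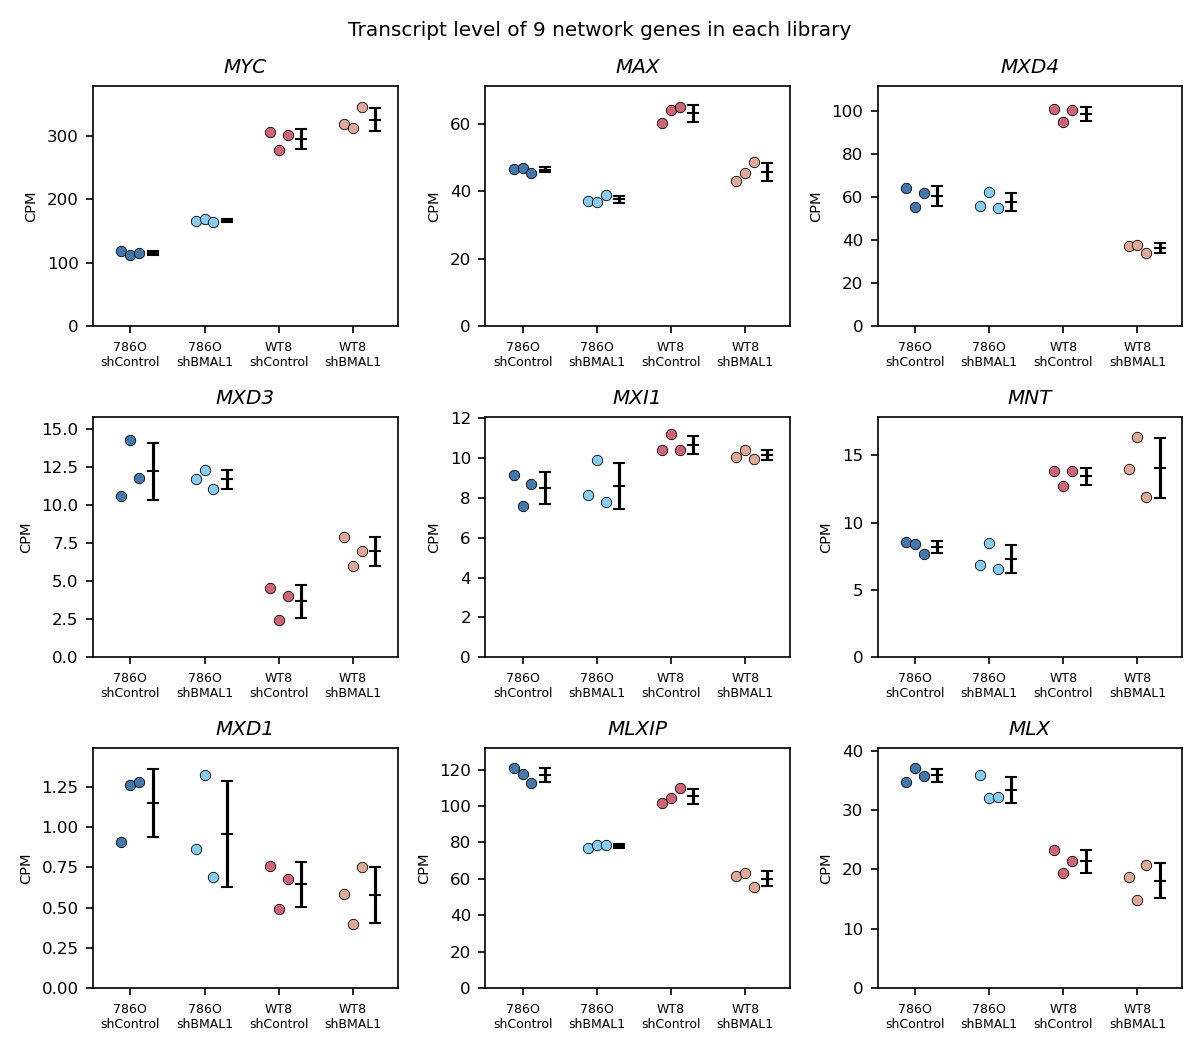
Level of each network gene in every library, in CPM on linear axes that start at 0. Each point is a library, 3 per group, and the bar beside them is the mean ± SD. MYC steps up from 786O shControl to WT8 shBMAL1 without overlap between neighbouring groups, while MXD4 is highest in WT8 shControl and lowest in WT8 shBMAL1.

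MYC (GRCh37 chr8:128747680-128755197, plus strand) had the highest level per exon length of the members in each of the 4 groups. Its libraries had 118, 112 and 116 CPM in 786O shControl and 165, 170 and 165 CPM in 786O shBMAL1. In WT8 they had 305, 277 and 302 CPM with shControl and 319, 311 and 345 CPM with shBMAL1. No 2 groups overlapped, and the order was 786O shControl, 786O shBMAL1, WT8 shControl and WT8 shBMAL1, from 3910 counts in the lowest library to 12890 in the highest. With shBMAL1 MYC rose 1.45-fold in 786O (log2 0.53, SE 0.05, adjusted p 1.12e-11). The rise in WT8 was 1.10-fold (log2 0.14, SE 0.05, adjusted p 0.00644), which was smaller than in 786O by the interaction test (-0.39, SE 0.07, adjusted p 4.53e-06). The difference between the lines was larger than either, at 2.56-fold (log2 1.36, SE 0.05, adjusted p 2.6e-24). CASC11, a noncoding gene that overlaps MYC on the opposite strand, had a mean of at most 0.315 CPM in any group.

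MYCN (GRCh37 chr2:16080672-16087129, plus strand), the MYC paralogue of neural and some embryonic tissues, had 0 counts in every library. A count of 0 over the 3 libraries of a group allows at most 3 counts, or 0.0267 to 0.0287 CPM. MYCL, the third paralogue and not one of the 10 genes, was low, with 0.825 to 1.55 CPM in 786O shControl and 2.21 to 2.42 CPM in 786O shBMAL1. It rose with shBMAL1 in 786O (log2 0.95, SE 0.24, adjusted p 0.00134), and its libraries in the 2 groups did not overlap. At its highest, 2.78 CPM, MYCL was below every MYC library.

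MAX (GRCh37 chr14:65472892-65569413, minus strand) is the partner that MYC, the MXD proteins and MNT all need. It had 46.6, 46.9 and 45.5 CPM in 786O shControl and 37.2, 36.7 and 38.8 CPM in 786O shBMAL1. The WT8 libraries had 60.2, 64.2 and 65.0 CPM with shControl and 43.1, 45.5 and 48.6 CPM with shBMAL1. All shBMAL1 libraries of a line lay below its shControl libraries, and WT8 shBMAL1 overlapped 786O shControl. MAX fell by 0.30 on the log2 scale in 786O (SE 0.06, adjusted p 7.92e-05) and by 0.47 in WT8 (SE 0.06, adjusted p 1.04e-08). The difference between these falls was not called (interaction -0.16, SE 0.08, adjusted p 0.104), and it was called with DESeq2 (-0.18, adjusted p 0.0688), with RLE scaling (adjusted p 0.0747), with totals alone (adjusted p 0.0789), and without WT8 shBMAL1 replicate 3 (adjusted p 0.0582) or WT8 shControl replicate 1 (adjusted p 0.0679). MAX was 1.36-fold higher in WT8 shControl than in 786O shControl (log2 0.45, SE 0.06, adjusted p 1.72e-08). MAX shares its locus with FNTB on the opposite strand, which had mean levels of 13.4 to 20.0 CPM and was not called with shBMAL1 in either line (log2 -0.14 in 786O and 0.03 in WT8). Between the lines FNTB was called higher in WT8 shControl (log2 0.41, SE 0.09), the direction of MAX. Its part in the MAX values was not tested. Some deposited values of MAX were not whole counts.

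MXD4 (GRCh37 chr4:2249159-2263836, minus strand), a repressor partner of MAX found in resting and differentiating cells, was the most abundant repressor per exon length and showed the largest change with shBMAL1 of the members. It had 64.4, 55.5 and 62.1 CPM in 786O shControl and 56.2, 62.4 and 55.0 CPM in 786O shBMAL1, and these groups overlapped. In WT8 its levels were 101, 94.9 and 100 CPM with shControl and 37.5, 37.8 and 34.0 CPM with shBMAL1. WT8 shControl was thus the highest group and WT8 shBMAL1 the lowest, with no overlap with either 786O group. In WT8 shBMAL1 MXD4 was 2.71-fold lower than in WT8 shControl (log2 -1.44, SE 0.06, adjusted p 3.18e-21). In 786O the log2 change was -0.07 (SE 0.06, adjusted p 0.387), and the interaction was -1.37 (SE 0.09, adjusted p 5.65e-16). WT8 shControl exceeded 786O shControl by 1.63-fold (log2 0.70, SE 0.06, adjusted p 5.28e-13). MXD4 is one of the 3 members with a CACGTG in the promoter window shown above, beside MNT and MLX. MNT was not called with shBMAL1 in either line, and MLX was called lower in WT8 only. MAX and MLXIP, lower with shBMAL1 in both lines, have no CACGTG in the window. A part of the site in these changes was not tested.

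MXD3 (GRCh37 chr5:176728462-176739758, minus strand), the MXD family member known to be expressed in the S phase of proliferating cells, had the opposite pattern to MXD4. It had 10.6, 14.3 and 11.7 CPM in 786O shControl and 11.7, 12.3 and 11.0 CPM in 786O shBMAL1, and these groups overlapped. WT8 libraries had 4.57, 2.47 and 4.02 CPM with shControl and 7.89, 6.02 and 6.96 CPM with shBMAL1. The WT8 groups did not overlap with each other or with 786O, and WT8 shBMAL1 lay between WT8 shControl and the 786O groups. MXD3 was 3.30-fold lower in WT8 shControl than in 786O shControl (log2 -1.72, SE 0.16, adjusted p 1.35e-10). With shBMAL1 it rose 1.88-fold in WT8 (log2 0.91, SE 0.16, adjusted p 1.99e-05), and in 786O its log2 change was -0.06 (SE 0.14, adjusted p 0.749). The interaction was 0.98 (SE 0.21, adjusted p 0.00039). MXD3 overlaps RAB24 on its own strand and PRELID1 on the other, and whether strand was used in counting is not given in the sources used here. In WT8 with shBMAL1 RAB24 fell by 0.36 (SE 0.07), and PRELID1 rose by 0.39 (SE 0.06), both on the log2 scale. Between the lines RAB24 was 0.25 higher and PRELID1 0.64 lower in WT8. PRELID1 moved in the direction of MXD3 in both comparisons, by less on the log2 scale, and its part in the MXD3 values was not tested.

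MXI1 (GRCh37 chr10:111967363-112047123, plus strand), a MAX partner that HIF is known to induce, did not respond to shBMAL1 at a level the test called. It had 9.16, 7.61 and 8.70 CPM in 786O shControl and 8.13, 9.90 and 7.79 CPM in 786O shBMAL1. Its WT8 levels were 10.4, 11.2 and 10.4 CPM with shControl and 10.0, 10.4 and 9.96 CPM with shBMAL1. The shControl and shBMAL1 groups overlapped in each line, with log2 changes of 0.02 (SE 0.11, adjusted p 0.911) in 786O and -0.07 (SE 0.10, adjusted p 0.557) in WT8. MXI1 was higher in WT8 shControl than in 786O shControl by 1.26-fold (log2 0.33, SE 0.11, adjusted p 0.0057). A processed pseudogene lies within MXI1 on the same strand.

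MNT (GRCh37 chr17:2287367-2304398, minus strand), the repressor that most cell types express throughout, had 8.55, 8.41 and 7.71 CPM in 786O shControl and 6.83, 8.49 and 6.55 CPM in 786O shBMAL1. The WT8 levels were 13.8, 12.7 and 13.8 CPM with shControl and 14.0, 16.3 and 11.9 CPM with shBMAL1. Every WT8 library was above every 786O library, while the shRNA groups overlapped within each line. MNT was 1.64-fold higher in WT8 shControl than in 786O shControl (log2 0.71, SE 0.11, adjusted p 6.69e-07). Its log2 change with shBMAL1 was -0.17 in 786O (SE 0.12, adjusted p 0.252) and 0.07 in WT8 (SE 0.11, adjusted p 0.61). Without 786O shBMAL1 replicate 2, the highest library of its group, MNT was called lower in 786O (log2 -0.30, adjusted p 0.0616) and the interaction was called too (0.37, adjusted p 0.058). The interaction was also called without WT8 shBMAL1 replicate 3 (0.36, adjusted p 0.0609).

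MXD1 (GRCh37 chr2:70124820-70170077, plus strand), the MXD protein of differentiating cells, was the scarcest member with a count, at 15 to 46 counts a library. Its range was 0.904 to 1.28 CPM with shControl and 0.689 to 1.32 with shBMAL1 in 786O, and 0.493 to 0.761 and 0.401 to 0.750 respectively in WT8. No neighbours in the order of the 4 group means were free of overlap. MXD1 was called lower in WT8 shControl than in 786O shControl (log2 -0.83, SE 0.34, adjusted p 0.0271), and this call was lost without WT8 shControl replicate 2 (log2 -0.67, adjusted p 0.111). A difference with shBMAL1 was not detectable at this depth, with SEs of 0.32 in 786O and 0.36 in WT8. MXD1 overlaps SNRNP27 on the same strand, which had mean levels of 29.1 to 57.2 CPM. SNRNP27 was called lower in WT8 shControl than in 786O shControl (log2 -0.35), the direction of MXD1. With shBMAL1 SNRNP27 was called higher in 786O (log2 0.49) and in WT8 (log2 0.98). Its part in the MXD1 values was not tested.

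**Figure D2:**
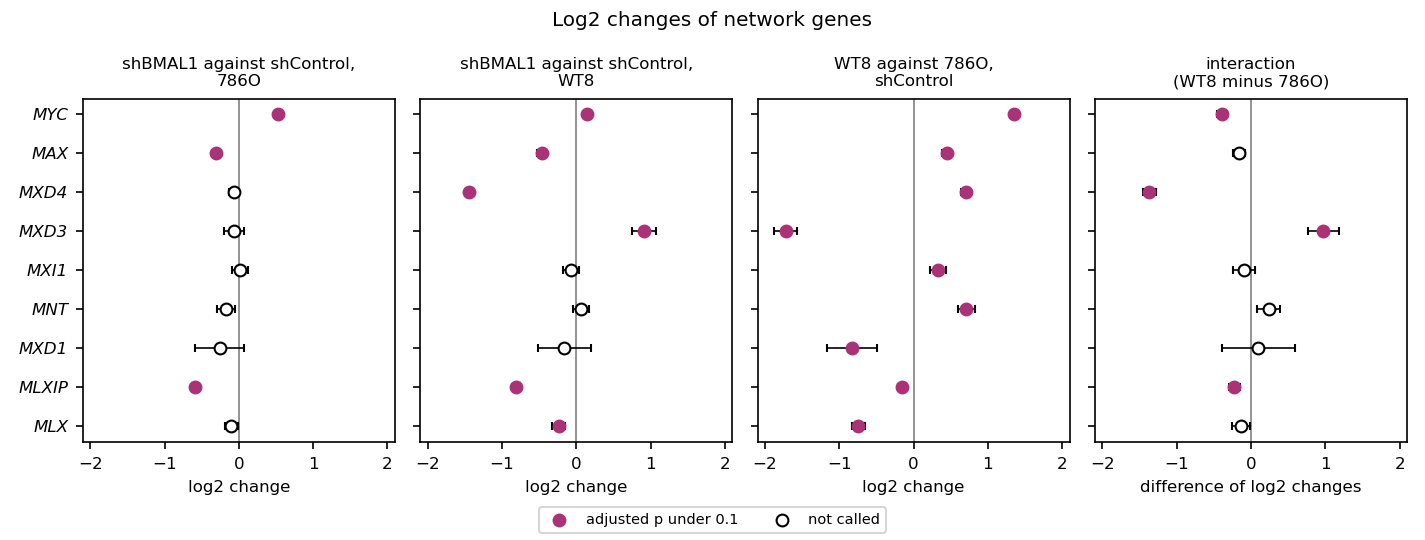
Log2 change of each network gene with its SE, in 3 comparisons and in the interaction, from the fit over 12 libraries. Filled points have an adjusted p under 0.1, open points do not, and bars shorter than the point are hidden. MXD4 (log2 -1.44) and MXD3 (log2 0.91) lie on opposite sides of 0 with shBMAL1 in WT8, and both lie near 0 in 786O.

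The levels of the 5 repressors MXD1, MXI1, MXD3, MXD4 and MNT, in CPM per kilobase of exon, were summed and divided by that of MYC. This ratio fell along the order of the groups, which is also the order of MYC, its denominator. In WT8 shControl MXD4, MNT and MXI1 were higher than in 786O shControl (1.63-, 1.64- and 1.26-fold), and MXD3 and MXD1 were lower. The ratio of that sum to MYC was 0.740, 0.740 and 0.743 in 786O shControl and 0.478, 0.523 and 0.463 in 786O shBMAL1. It was 0.383, 0.391 and 0.383 in WT8 shControl, then 0.202, 0.205 and 0.170 in WT8 shBMAL1. No 2 groups overlapped, and the means were 0.741 ± 0.00151, 0.488 ± 0.0313, 0.386 ± 0.00486 and 0.192 ± 0.0196 (SD, n = 3). In 786O the lower ratio with shBMAL1 came with higher MYC and no called change of a repressor. In WT8 the lower ratio came with a 1.10-fold rise of MYC and the fall of MXD4, while MXD3, also in the sum, rose 1.88-fold. MXD4 made up 63.2% ± 3.12 of the repressor sum in 786O shControl, 63.2% ± 0.741 in 786O shBMAL1, then 77.3% ± 0.467 in WT8 shControl but 52.0% ± 0.442 in WT8 shBMAL1. The level of MAX over that of MYC was 0.393 ± 0.0141, 0.220 ± 0.00933, 0.210 ± 0.0167 and 0.137 ± 0.00535 in the same order, and the middle groups overlapped. These are ratios of transcripts, were not tested, and say nothing of the proteins. With the longest transcript as the length, the repressor ratios were 0.777, 0.512, 0.390 and 0.202.

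**Figure D3:**
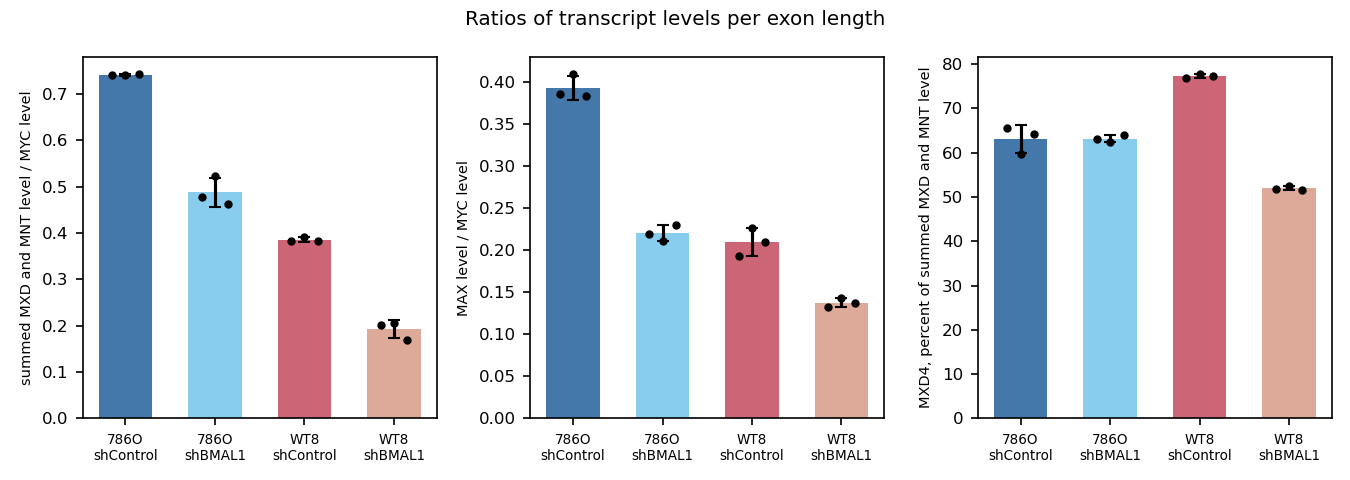
Ratios of levels per kilobase of exon in each group: the 5 summed repressors over MYC, MAX over MYC, and MXD4 as a percentage of the repressor sum. Bars are means that start at 0, error bars are SD and points are the 3 libraries. The repressors stand at 0.741 of MYC in 786O shControl and at 0.192 in WT8 shBMAL1.

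MLXIP (GRCh37 chr12:122516628-122631894, plus strand) encodes MondoA, and no annotated gene overlaps it. It had 121, 118 and 113 CPM in 786O shControl and 77.0, 78.8 and 78.5 CPM in 786O shBMAL1. WT8 cells had 102, 104 and 110 CPM with shControl and 61.6, 63.3 and 55.3 CPM with shBMAL1. No 2 groups overlapped, and both shBMAL1 groups were below both shControl groups. MLXIP fell by 0.58 in 786O (SE 0.05, adjusted p 1.07e-11) and by 0.81 in WT8 (SE 0.05, adjusted p 5.15e-16), both on the log2 scale. The fall was larger in WT8 by the interaction test (-0.22, SE 0.07, adjusted p 0.00984). Between the shControl groups MLXIP was called slightly lower in WT8 (log2 -0.15, SE 0.05, adjusted p 0.00692), and that call was lost when libraries were scaled by their totals alone (log2 -0.03, adjusted p 0.534), a scaling that moved the median of all genes in this comparison from 0.00 to 0.12.

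MLX (GRCh37 chr17:40719090-40725257, plus strand), the partner of MLXIP, differed mainly between the lines. It had 34.8, 37.1 and 35.7 CPM in 786O shControl and 35.95, 31.98 and 32.2 CPM in 786O shBMAL1. In WT8 MLX had 23.3, 19.4 and 21.4 CPM with shControl and 18.7, 14.9 and 20.7 CPM with shBMAL1. Every WT8 library was below every 786O library, and the shRNA groups overlapped in each line. MLX was 1.68-fold lower in WT8 shControl than in 786O shControl (log2 -0.75, SE 0.09, adjusted p 3.99e-09). A small fall of MLX was called in WT8 with shBMAL1 (log2 -0.24, SE 0.09, adjusted p 0.0219), a call lost without WT8 shBMAL1 replicate 2 (log2 -0.11, adjusted p 0.29) and without WT8 shControl replicate 1 (log2 -0.17, adjusted p 0.13). In 786O the log2 change was -0.10 (SE 0.09, adjusted p 0.359). PSMC3IP, which overlaps MLX on the opposite strand, was 2.34 lower on the log2 scale in WT8 shControl than in 786O shControl (SE 0.08) and rose by 1.36 with shBMAL1 in WT8 (SE 0.08), and its part in the MLX values was not tested. MLXIPL, the ChREBP gene of liver, had at most 5 counts in a library.

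Known targets of MLXIP with MLX were lower with shBMAL1 in WT8. Of a list of 4 (TXNIP, ARRDC4, ARRDC3 and PKLR), 3 were tested. In WT8 3 of 3 fell, beside 36.9% of all genes, with a median log2 change of -2.52, beside -0.04 over all genes. In 786O 2 of 3 fell, beside 24.4% of all genes, with a median of -0.17 beside 0.00. TXNIP, an inhibitor of glucose uptake, had 9.69, 7.43 and 9.78 CPM in 786O shControl, 5.28, 6.04 and 5.23 in 786O shBMAL1, 16.2, 19.7 and 17.9 in WT8 shControl, and 2.21, 2.54 and 2.36 in WT8 shBMAL1. The WT8 groups were the highest and the lowest. Its log2 change with shBMAL1 was -0.70 in 786O (SE 0.12, adjusted p 1.06e-05) and -2.92 in WT8 (SE 0.13, adjusted p 7.78e-21). The arrestin-like gene ARRDC3 fell from a mean of 103.7 to 18.1 CPM in WT8 (log2 -2.52, SE 0.06, adjusted p 1.95e-29) and from 135.9 to 120.6 CPM in 786O (log2 -0.17, SE 0.05, adjusted p 0.00507). ARRDC4 fell in WT8 (log2 -1.60, SE 0.41, adjusted p 0.000834), from 13 to 28 counts a library to 6 to 8. Between the lines TXNIP was higher in WT8 shControl (log2 1.00, SE 0.11) and ARRDC4 lower (log2 -2.39, SE 0.27). In 786O the log2 change of ARRDC4 was -0.01 (SE 0.23, adjusted p 0.986). The interaction was negative for TXNIP (-2.22, adjusted p 4.91e-13), ARRDC3 (-2.35, adjusted p 2.19e-24) and ARRDC4 (-1.59, adjusted p 0.00469).

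In the larger list of genes that MYC is known to raise, more were called higher than lower with shBMAL1 in each line. Between the lines the calls in this list went about evenly in both directions. The smaller list, of classic E-box targets, had more lower than higher with shBMAL1 in 786O and between the lines. Of 58 genes after the Hallmark set of MYC targets (V2), many of which act in ribosome assembly, 57 were tested. With shBMAL1 in 786O 34 rose (59.6%, beside 24.5% of all genes) and 7 fell (12.3%, beside 24.4%), with a median log2 change of 0.17 beside 0.00 over all genes. In WT8 32 rose (56.1%, beside 32.9%) and 17 fell (29.8%, beside 36.9%) with shBMAL1, with a median of 0.22 beside -0.04. Between the lines, where MYC differed most, WT8 had 28 higher (49.1%, beside 39.3%) and 24 lower (42.1%, beside 40.2%), and the median was 0.07 beside 0.00. The interaction was positive for 24 (42.1%, beside 27.4%) and negative for 20 (35.1%, beside 28.5%), with a median of -0.01 beside -0.03. The genes of this list with the largest changes act in the cell cycle. MCM5, a subunit of the replicative helicase, was lower in WT8 shControl than in 786O shControl by 3.49 on the log2 scale (SE 0.05) and rose by 3.25 with shBMAL1 in WT8 (SE 0.05). PLK4, the kinase of centriole duplication, was -2.69 between the lines and 2.83 with shBMAL1 in WT8, both as log2 changes. The corresponding log2 changes were -2.34 and 2.33 for MCM4 and -2.18 and 2.25 for PLK1, a mitotic kinase. These 4 genes moved in the direction of MXD3 in both comparisons, and a part of the cell cycle in the MXD3 values was not tested.

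In a separate list of 12 classic E-box targets of MYC, 11 were tested. For this list and those that follow, the shares of all genes called were 48.9% and 69.8% with shBMAL1 in 786O and WT8, 79.5% between the lines and 56.0% in the interaction, and the medians over all genes were 0.00, -0.04, 0.00 and -0.03 in that order. Of the classic targets 81.8%, 72.7%, 63.6% and 81.8% were called. With shBMAL1 2 rose and 7 fell in 786O (median log2 change -0.12), and 5 rose and 3 fell in WT8 (median 0.02). Between the lines 2 were higher and 5 lower in WT8 (median -0.09), and in the interaction 8 were positive and 1 negative (median 0.23). NME1, a nucleoside diphosphate kinase, rose with shBMAL1 in both lines (log2 0.27 in 786O and 0.93 in WT8), and SHMT2, the mitochondrial serine enzyme, fell in both (log2 -0.66 and -0.53). RCC1, a nuclear transport factor, fell in 786O (log2 -0.51). The translation factor EIF4A1 was higher in WT8 shControl than in 786O shControl (log2 0.96, SE 0.18) and fell with shBMAL1 in WT8 (log2 -0.59). Between the lines NME1 and RCC1 were lower in WT8 shControl (log2 -0.83 and -0.67), and SHMT2 was not called (log2 0.05).

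Of 10 genes that MYC is known to repress, 8 were tested, and 75.0%, 75.0%, 100% and 62.5% of them were called in the same order of comparisons. With shBMAL1 2 rose and 4 fell in 786O (median log2 change -0.33) and likewise 2 rose and 4 fell in WT8 (median -0.41). Between the lines 5 were higher and 3 lower in WT8 (median 0.40), and in the interaction 2 were positive and 3 negative (median -0.08). CDKN1C, a cyclin-dependent kinase inhibitor, fell with shBMAL1 in 786O (log2 -1.59, SE 0.25) and in WT8 (log2 -2.83, SE 0.26). NDRG1, which HIF is also known to induce, fell with shBMAL1 in 786O (log2 -0.32) and in WT8 (log2 -2.64). It was higher in WT8 shControl than in 786O shControl (log2 0.62, SE 0.04). CDKN1A, the p21 inhibitor, and GADD45B, a stress response gene, were lower in WT8 shControl than in 786O shControl (log2 -1.94 and -1.70).

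**Figure D4:**
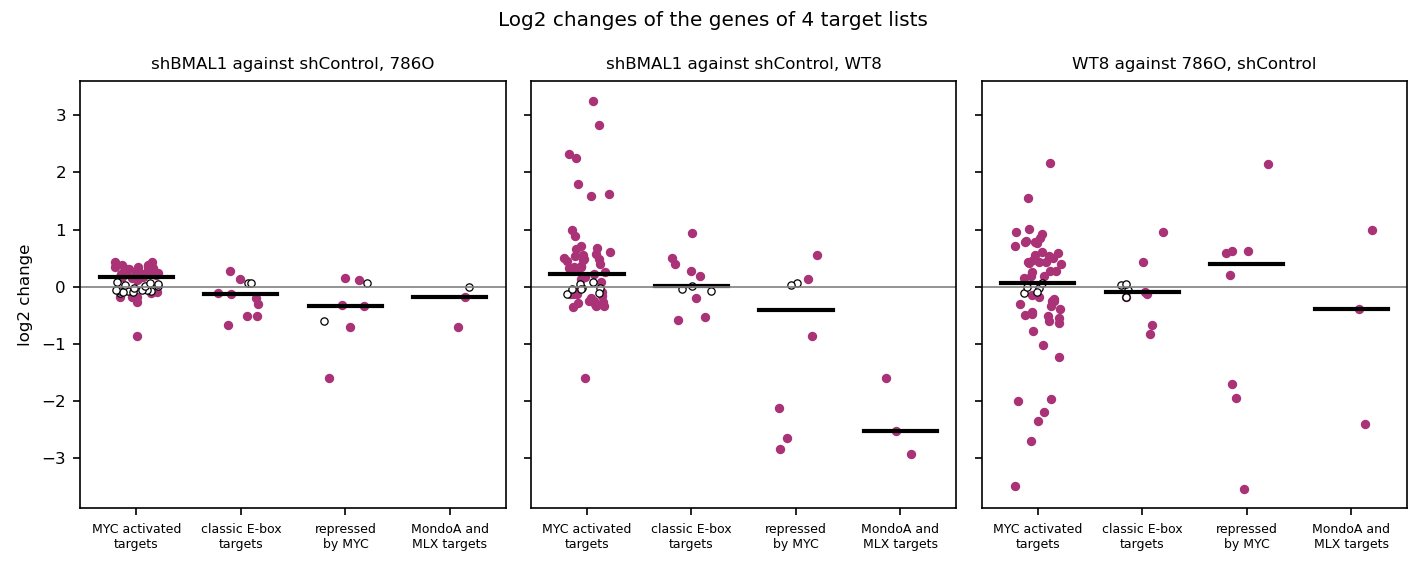
Log2 changes of the tested genes of 4 target lists in 3 comparisons, a point per gene, with the median of each list as a line. Filled points have an adjusted p under 0.1 and open points do not. The MYC activated targets spread on both sides of 0 in each panel, with medians of 0.17, 0.22 and 0.07, while the 3 MondoA and MLX targets all lie below 0 with shBMAL1 in WT8.

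Of 8 genes for the SIN3, HDAC and NCOR1 complexes used by MXD and MNT, 1 rose and 4 fell with shBMAL1 in 786O, and 7 rose and 1 fell in WT8, with medians of -0.06 and 0.33 on the log2 scale. Between the lines 3 were higher and 5 lower in WT8 (median -0.32), and in the interaction 6 were positive and 1 negative (median 0.34). The shares called were 62.5%, 100%, 100% and 87.5%, in the order given for the classic targets. SIN3A, the scaffold, was lower in WT8 shControl than in 786O shControl (log2 -1.08, SE 0.06), fell with shBMAL1 in 786O (log2 -0.24, SE 0.05) and rose with it in WT8 (log2 0.63, SE 0.06). SAP30, a subunit of the complex, did likewise (log2 -0.86, -0.25 and 0.69). RBBP7, a histone-binding subunit, rose in WT8 with shBMAL1 (log2 0.89). SIN3B, the second scaffold, ran the other way in WT8, higher in WT8 shControl than in 786O shControl (log2 0.64) and lower with shBMAL1 in WT8 (log2 -0.60) and in 786O (log2 -0.31).

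All 10 MYC cofactors of a further list were tested, and 1 rose and 2 fell with shBMAL1 in 786O and 4 rose and 0 fell in WT8 (medians 0.02 and 0.09). Between the lines 3 were higher and 6 lower in WT8 (median -0.23), and 6 interactions were positive and 1 negative (median 0.28). The shares called were thus 30%, 40.0%, 90.0% and 70.0%, the first 2 below those of all genes. TRRAP, the scaffold of MYC's acetyltransferase complexes, was lower in WT8 shControl (log2 -1.37, SE 0.09), as were MYCBP (log2 -1.07) and ZBTB17, the MIZ1 protein through which MYC represses (log2 -0.50). MYCBP2, a large ubiquitin ligase, rose with shBMAL1 in WT8 (log2 0.54).

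Regulators of MYC protein stability were listed as 10 names, an older and a newer name of 1 gene among them, and 9 were tested. In each of the 4 comparisons 77.8% were called, beside 48.9%, 69.8%, 79.5% and 56.0% of all genes in the order given for the classic targets. With shBMAL1 1 rose and 6 fell in 786O (median -0.16), and 5 rose and 2 fell in WT8 (median 0.46). Between the lines 3 were higher and 4 lower in WT8 (median -0.13), and 6 interactions were positive and 1 negative (median 0.60). FBXW7, the ubiquitin ligase subunit that marks MYC for degradation, fell with shBMAL1 in both lines (log2 -0.43, SE 0.12, in 786O and -0.64, SE 0.11, in WT8) and was higher in WT8 shControl than in 786O shControl (log2 1.03). SKP2, another ligase subunit for MYC, rose with shBMAL1 in WT8 (log2 0.70), as did AURKA (log2 1.45) and KIAA1524 (log2 2.06). The products of AURKA and KIAA1524 are known to protect MYC, and both are also cell cycle genes. SKP2, AURKA and KIAA1524 were lower in WT8 shControl than in 786O shControl (log2 -0.996, -1.34 and -2.33). With shBMAL1 in 786O, SKP2 (log2 -0.32) and KIAA1524 (log2 -0.16) were called lower, and AURKA was not called (log2 0.02). Levels of MYC protein were not measured here.

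Of 16 other E-box factors of the bHLH class that were listed, 15 were tested, with 6 higher and 3 lower with shBMAL1 in 786O and 7 higher and 4 lower in WT8 (medians 0.01 and 0.07). Between the lines 5 were higher and 8 lower in WT8 (median -0.26), and 5 interactions were positive and 6 negative (median -0.12). The shares called were 60.0%, 73.3%, 86.7% and 73.3%, beside 48.9%, 69.8%, 79.5% and 56.0% of all genes. Besides BMAL1 itself, the target of the shRNA, HES1, a repressor downstream of Notch, rose with shBMAL1 in 786O (log2 1.03), and HES1 and HEY1 were higher in WT8 shControl (log2 1.47 and 1.79). TFEB, a regulator of lysosomal genes, was lower in WT8 shControl (log2 -1.56) and rose with shBMAL1 in WT8 (log2 0.99). MGA, a large MAX partner, is not in this list but in one of 3 other network genes, with MYCL and MLXIPL, of which 2 were tested. In that list 1, 0, 2 and 1 were called, in the order given for the classic targets. MGA was higher in WT8 shControl than in 786O shControl (log2 0.34) and was not called with shBMAL1 in either line.

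Over the 12 libraries the genes whose log2 CPM most resembled that of MYC, among 12948 genes with a mean of at least 50 counts, were YBX3 (Pearson r 0.996), LINC00958 (r 0.993) and HIPK3 (r 0.993). For MXI1 they were LOC102723665 (r 0.917), TCFL5 (r 0.913) and APOC1 (r 0.913). These r values describe 12 points that fall into 4 groups, so they largely compare the group means.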

How the data were processed

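RNA-seq of 12 libraries, 3 in each of 4 groups, was analysed from gene-level estimated counts that the authors deposited as 1 table, not scaled between libraries. The study's methods give alignment to GRCh37 with SeqMan NGen and export from ArrayStar, whereas the submitters' processing notes list hg38, STAR and DESeq2. The library kit was stranded. The annotation, the use of strand and the handling of reads with several alignments are not given in the sources used here. Members of overlapping genes are therefore uncertain. A value of 0.028 stood for 0 (47.0% of values) and 5.67% of the other values were not whole, so the stand-in was set to 0 and values were rounded. The tests had been planned for plain counts. Values of 2 counts (14904) outnumbered values of 1 (11312), so mates may have been counted apart, and limits on a count of 0 cover counting error only.

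Genes were filtered with filterByExpr, scaled by TMM (factors 0.948 to 1.04) and tested with the robust quasi-likelihood test of edgeR 4.0.16 in R 4.3.3, with a mean per group over all 12 libraries and Benjamini-Hochberg adjustment over all 16838 genes. An adjusted p under 0.1 was called. The SE is that of the log2 change, and the common coefficient of variation was 5.70%. Changes over 1.5-fold were tested with glmTreat. Alternatives were DESeq2 1.42.0, other scalings, no filter, the groups compared alone, a replicate block, and leaving out each library. Fits were tested on simulated data. Levels between genes were compared as CPM per kilobase of the union of exons in GENCODE on GRCh37, and gene positions are from there. For likeness to MYC and MXI1, 0.05 was added to CPM before log2. Replicates of a group differed by more than sampling noise (chi-square per gene 4.37 to 11.6).

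Every member is described. From each list at most 4 genes are named, those with the largest log2 change in a called comparison and a mean of at least 50 counts. The members and the lists, written from general knowledge, were chosen with earlier results of these data known. Of the renal markers, 1 is not reported here.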

Additional observations from a re-analysis of the deposited data

Results flagged for a closer look

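For 4 network genes the change with shBMAL1 differed between WT8 and 786O by the interaction test of edgeR (adjusted p under 0.1, 3 libraries per group). The log2 change in WT8 minus that in 786O was -1.37 for MXD4, 0.98 for MXD3, -0.39 for MYC and -0.22 for MLXIP. For MYC and MLXIP the change had the same direction in both lines and differed in size, while for MXD4 and MXD3 it was called in WT8 and not in 786O. Of all genes tested, 56.0% had a called interaction.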

How the results depend on the processing

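Of 675 values of the members under the alternatives, 641 kept direction and call, 17 lost a call, 8 gained one and 9 changed sign. Requiring a change over 1.5-fold left 0 members in 786O, 3 in WT8, 4 between the lines and 2 in the interaction, which follows from the stricter test. The replicate block left the counts of called members at 3, 6, 9 and 4 and changed 0 of 36 calls. Same-numbered libraries did not deviate together (r from -0.0456 to 0.0481), so no deviation shared by number was seen. Whether same-numbered cultures were made together is not given by the labels, and these r values cannot tell. All sign changes were of values that were not called, when 1 library was left out. Over the leave-outs the log2 change with shBMAL1 ranged from -0.10 to 0.082 for MXI1 and from -0.16 to 0.060 for MXD3 in 786O, and from -0.38 to 0.054 for MXD1 and from -0.048 to 0.18 for MNT in WT8, and the interaction from -0.15 to 0.032 for MXI1 and from -0.12 to 0.42 for MXD1. The cause was not tested. The lost and gained calls of MAX, MNT, MXD1, MLX and MLXIP are given beside their values. Depth limits MXD1 most, at 15 to 46 counts a library. The repressor ratio in 786O shControl moved from 0.741 to 0.777 with the longest transcript as the length.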
